A study of Homo sapiens with 6 samples.

Results

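The nuclear pore and nuclear transport genes are the nucleoporins that build the pore and the karyopherins that carry cargo through it. They were chosen by symbol among protein-coding genes, as NUP, KPNA, KPNB, IPO or XPO followed by a number (with 1 XPO gene left out), plus TPR, RANBP2, NDC1 and POM121. The rule used no measured value. It found 44 genes among 19032 protein-coding genes and 37339 matched transcripts, with 1 counted transcript for each gene. Untreated K562 cells, a human chronic myelogenous leukemia line grown in RPMI-1640 with fetal bovine serum, were measured with 4 total RNA-seq and 2 PRO-seq libraries. The study's methods place all 6 libraries in cells of 1 flask, so the spread between libraries is technical and says nothing of differences between cultures.

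The nuclear pore complex is a ring of scaffold proteins set in the nuclear envelope, filled by flexible nucleoporins with phenylalanine-glycine (FG) repeats and decorated by filaments on its cytoplasmic face and by a basket on its nuclear side. Importins bind cargo in the cytoplasm and release it in the nucleus when they meet RAN bound to GTP, and exportins take up cargo together with RAN-GTP and release it outside. In dividing blood-forming cells the pore is taken apart and rebuilt at each mitosis, and several of its genes (NUP98, NUP214) are partners of leukemia fusions.

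PRO-seq maps engaged RNA polymerase and RNA-seq the RNA present. Levels are given in TPM, which scales the counts per base of each TU to the same sum in every library. The bases counted differ between the assays, being the exons for RNA-seq and the whole transcription unit (TU) without 500 bp at each end for PRO-seq. Relative half-life is the RNA-seq TPM divided by the PRO-seq TPM. It has no unit of time, and is given on the log2 scale as a difference from the median mRNA, so that 1 means a ratio 2-fold above that mRNA. A TU entered when its PRO-seq level exceeded 10 TPM and its RNA-seq level 1 TPM. Each TU was tested against the median mRNA with edgeR's quasi-likelihood test, and the p-values were adjusted over all TUs tested. PRO-seq counts polymerases, so a slow polymerase and a frequent start cannot be told apart in the ratio, and in a bulk culture fewer expressing cells cannot be told apart from less RNA per cell.

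The 6 libraries held between 5732780 and 9002746 counts on TUs, of which the members took 1.07% to 1.13% of those matched to a gene. RNA-seq replicates 1 and 3, and replicates 2 and 4, were closer to each other than to the rest, in the share of records that aligned to several places (28.0% and 27.9%, against 24.9% and 24.5%). For this reason the members called are also given with each such pair summed in the account of the alternatives. Of 9 markers of K562 cells, 8 were found and all exceeded 1 RNA-seq TPM. Of markers of other cells, CD3E, COL1A1 and ALB lay under 1 RNA-seq TPM, and PTPRC and EPCAM were present at 72.5 and 119.8 RNA-seq TPM.

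Nearly all members were both transcribed and present. RNA-seq TPM exceeded the median of all mRNAs (2.67 TPM) for 42 of 44 members and PRO-seq TPM exceeded its median (8.04 TPM) for 41 of 44. The median member stood at 77.7 RNA-seq TPM and 84.1 PRO-seq TPM, and 19 members by RNA-seq TPM and 18 by PRO-seq TPM lay in the top 10% of mRNAs. Of the 44, 41 passed both thresholds, and these 41 spread less than other mRNAs past the thresholds. Their SD of log2 TPM was 1.40 in RNA-seq and 0.98 in PRO-seq, beside 2.05 and 1.24 for the 8733 mRNAs, a difference that is given as a description without a test.

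**Figure D1:**
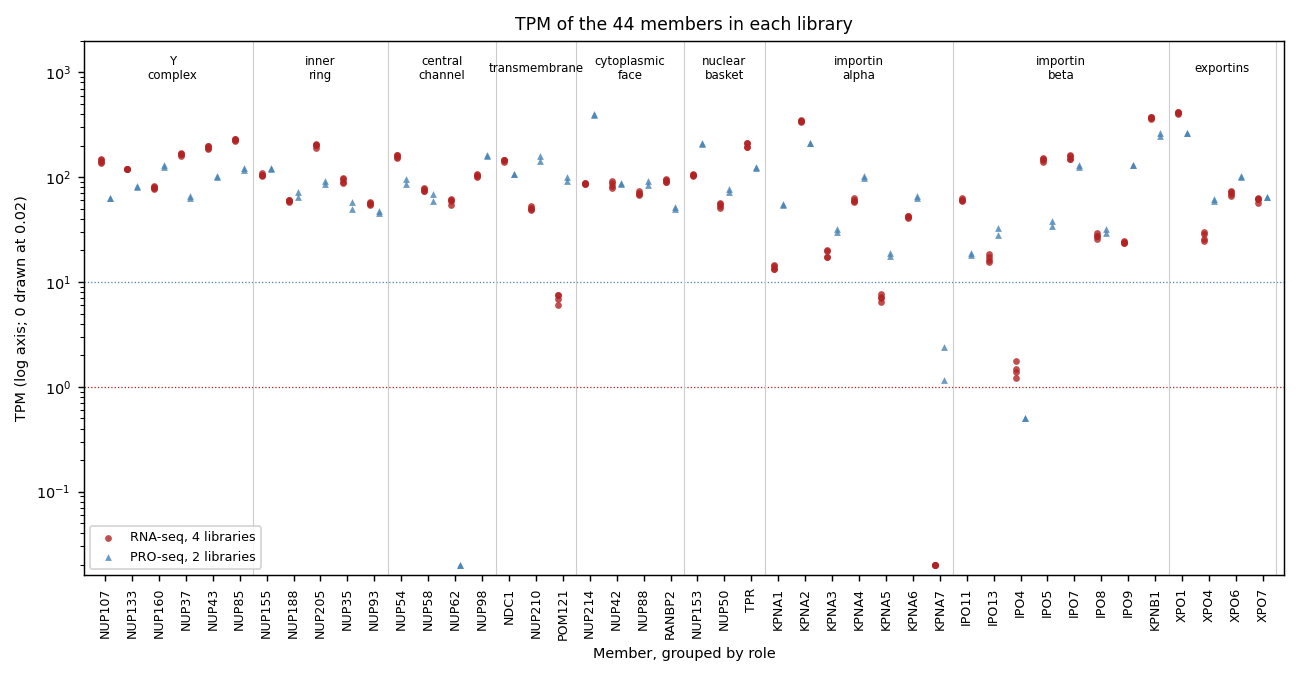
TPM (log axis) of each of the 44 members in the 4 RNA-seq libraries (red circles) and the 2 PRO-seq libraries (blue triangles), grouped by role; dotted lines mark 1 TPM (red) and 10 TPM (blue), and values of 0 are drawn at 0.02. Points of 1 assay lie close together for nearly every member; NUP62 is at 0 in PRO-seq, KPNA7 at 0 in RNA-seq, and IPO4 is under 2 TPM in RNA-seq and under 10 TPM in PRO-seq.

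Against the median mRNA, 27 of the 41 members were called above it and 8 below, while 6 passed no test (edgeR quasi-likelihood, Benjamini-Hochberg adjusted p under 0.05). This is 65.9% above and 19.5% below, beside 45.4% above and 44.9% below among all 8733 mRNAs tested, and 40.4% and 50.0% among all 9927 TUs. The median member had a log2 relative half-life of 0.55, and the members ranged from -3.14 (POM121) to 2.65 (IPO5). When only differences of more than 2-fold were tested, 16 members were called above and 4 below, beside 24.3% and 23.2% of the mRNAs. When every TU with at least 1 summed count in each assay entered, which lowers the median mRNA that the members are set against, 36 of 42 members were called above and 5 below. All TUs in that setting gave 6634 above and 7595 below of 20631.

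Nucleoporins and carriers are given side by side. Of 24 nucleoporins, 18 were called above and 4 below, with a median log2 relative half-life of 0.90. Of 17 importins and exportins, 9 were called above and 4 below, with a median of 0.094. The difference between these sets was not tested, since the genes of a set are not replicates. Replicate error was small beside the range of the members. The median SD of log2 half-life over libraries was 0.0735 for the 41 members and 0.126 for mRNAs, with the highest value (0.179) for NUP35, and in all 8 pairings of an RNA-seq with a PRO-seq library 34 of the 41 members did not change sides. The 7 that did were IPO13, KPNA3, KPNA4, KPNA6, NUP160, NUP98 and XPO6.

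**Figure D2:**
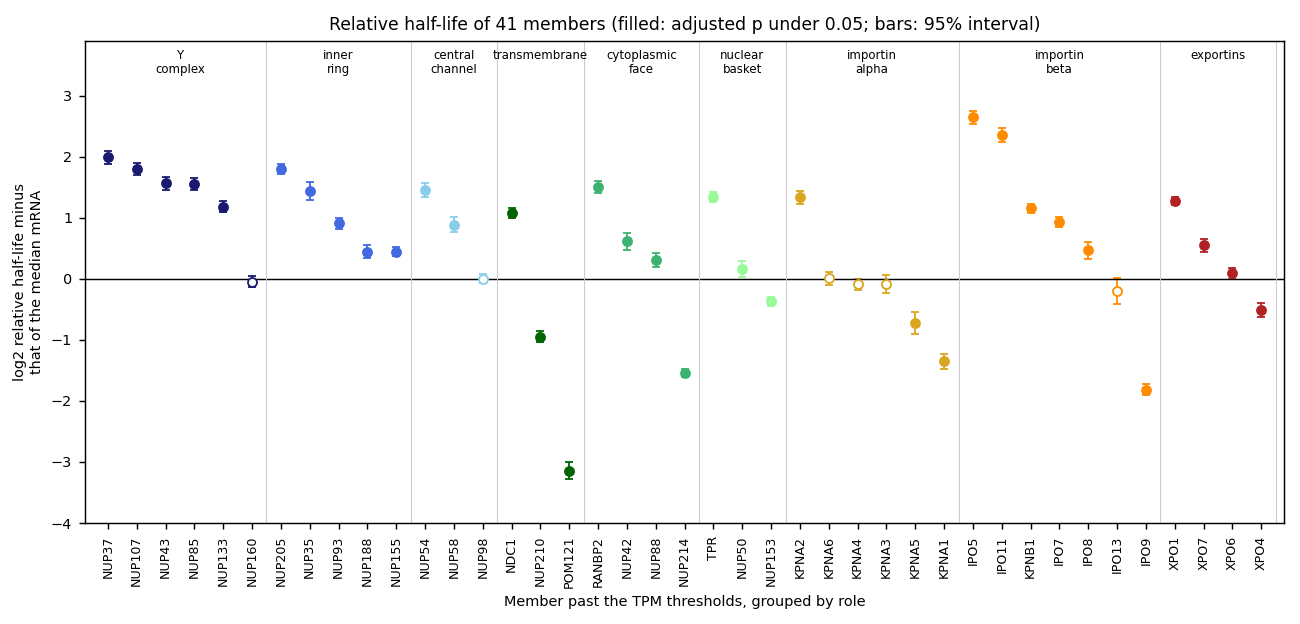
Log2 relative half-life of the 41 members past the thresholds, as the difference from the median mRNA (0), grouped by role; points are edgeR estimates over 4 RNA-seq and 2 PRO-seq libraries, bars their 95% intervals, and open points did not pass an adjusted p of 0.05. No member of the Y complex or inner ring was called below 0, and POM121 is the lowest at -3.14.

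The Y complex, the outer ring scaffold that coats the membrane, had 6 members here, of which 5 were called above the median mRNA and none below. NUP37, a peripheral subunit of the complex (chromosome 12, 102466881 to 102513892, - strand, GRCh37), gave 159, 166, 167 and 169.7 RNA-seq TPM in replicates 1 to 4, and 63.9 and 65.5 PRO-seq TPM. These libraries differed little, and the log2 relative half-life was 1.99 ± 0.051 (SE, adjusted p = 9.52e-26, edgeR), that is, a ratio 3.97-fold that of the median mRNA. NUP107, a stem subunit of the Y (1.80 ± 0.046), NUP43 (1.56 ± 0.051), NUP85 (1.56 ± 0.049) and NUP133, at the end of the stem (1.18 ± 0.042), followed on the same log2 scale. NUP43 and NUP85 did not differ beyond their intervals.

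NUP160, another long scaffold subunit, was the exception (chromosome 11, 47799670 to 47869902, - strand). It gave 76.3, 81.1, 78.9 and 81.9 RNA-seq TPM, the lowest of the 6, and 131 and 125 PRO-seq TPM, the highest of the 6. On the log2 half-life scale it lay at -0.048 (95% interval -0.14 to 0.041, adjusted p = 0.297, edgeR). The 6 subunits, which the complex holds in equal numbers, spanned 2.85-fold in RNA-seq TPM and 2.01-fold in PRO-seq TPM.

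All 5 inner ring members, the scaffold that lines the channel, were called above the median mRNA. NUP205, a large ring subunit (chromosome 7, 135242665 to 135333501, + strand), gave 191, 201, 205 and 202 RNA-seq TPM against 91.9 and 86.1 PRO-seq TPM. RNA-seq replicate 1 was its lowest and the log2 relative half-life was 1.80 ± 0.041 (adjusted p = 4.96e-27, edgeR). NUP188, its paralogous partner in the ring, had a value of 0.44 ± 0.05. Of its trimmed TU, 14.3% is shared with another counted TU on the same strand, and its value was 0.30 on the same scale when shared bases were left out of all lengths. NUP35 (1.44 ± 0.071) and NUP93, which anchors the channel (0.91 ± 0.046), lay between them.

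The lowest of the inner ring was NUP155, which contacts the membrane (chromosome 5, 37288239 to 37371208, - strand). It gave 103, 104, 108 and 105 RNA-seq TPM, close to one another, and 119 and 122 PRO-seq TPM, the highest of the group. Its log2 relative half-life was 0.44 ± 0.038 (adjusted p = 2.36e-12, edgeR), within the interval of NUP188.

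Of the FG nucleoporins of the central channel, which form the barrier itself, NUP54 was the highest (chromosome 4, 77035817 to 77069638, - strand). NUP54 gave 153, 164, 162 and 155 RNA-seq TPM and 95.1 and 85.2 PRO-seq TPM, with a log2 relative half-life of 1.45 ± 0.057 (adjusted p = 8.11e-21, edgeR). The transcript counted for it is annotated as a target of nonsense-mediated decay. NUP58, which binds NUP54 and NUP62, followed at 0.89 ± 0.06.

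NUP98, an FG nucleoporin made from a precursor shared with a scaffold subunit, lay at the median mRNA itself (chromosome 11, 3696241 to 3819022, - strand). It gave 105, 103, 107 and 99.3 RNA-seq TPM and 158 and 164 PRO-seq TPM. The 95% interval of its log2 relative half-life ran from -0.075 to 0.075 (adjusted p = 0.998, edgeR), so a difference of 1 in either direction lies far outside it. NUP62, the remaining channel protein, had no PRO-seq count and is described with the members that missed the thresholds.

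The transmembrane nucleoporins, which hold the pore in the envelope, were transcribed at similar levels and differed most in RNA. The 3 genes spanned 1.57-fold in PRO-seq TPM and 20.6-fold in RNA-seq TPM. NDC1 (chromosome 1, 54231151 to 54303969, - strand) gave 141, 145, 145 and 147 RNA-seq TPM and 107 and 106 PRO-seq TPM, and its log2 relative half-life was 1.08 ± 0.04 (adjusted p = 1.94e-21, edgeR). NUP210, a large lumenal protein, was called below the median mRNA at -0.95 ± 0.042, with 50.1 RNA-seq and 151 PRO-seq TPM over the summed libraries.

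POM121, an anchor protein of the pore membrane, had the lowest relative half-life of all members (chromosome 7, 72349936 to 72421979, + strand). RNA-seq gave 6.90, 7.51, 7.48 and 6.09 TPM and PRO-seq 92.1 and 100.4 TPM, so each PRO-seq library was far above each RNA-seq library. Its log2 relative half-life was -3.14 ± 0.066 (adjusted p = 4.8e-28, edgeR), a ratio 8.82-fold below the median mRNA, and the pairings of libraries ranged from -3.41 to -3.00.

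This value is uncertain, because POM121 has a near-identical copy, POM121C, on the same chromosome. Of the windows of 75 bases (the RNA-seq read length) in its spliced transcript, 44.8% occur elsewhere in the genome, against 30.6% of those in the trimmed TU. PRO-seq was sequenced with longer reads by the study's methods, so the share of the TU need not be the share of PRO-seq reads lost. Records that aligned to several places were not assigned to a TU in these counts, so such windows can lose reads in both assays, and how much of the low ratio this accounts for was not tested. POM121C moved with it, at 2.92 RNA-seq and 103 PRO-seq TPM and a log2 relative half-life of -4.50 ± 0.079 (adjusted p = 4.56e-30, edgeR). The first such window within a coding exon, from the 5′ end of POM121, is printed as an example of reads that cannot be assigned; it lies at chr7:72400478-72400552 on the + strand (GRCh37) and, letter for letter, at chr7:75066890-75066964 on the - strand within POM121C.
POM121 and POM121C: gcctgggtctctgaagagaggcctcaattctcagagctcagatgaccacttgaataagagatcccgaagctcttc

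On the cytoplasmic face, which carries the filaments where exported RNPs are remodelled, RNA levels were nearly equal while transcription was not. The 4 members spanned only 1.32-fold in RNA-seq TPM (70.0 to 92.5) and 7.82-fold in PRO-seq TPM (50.7 to 397). Of these, RANBP2, NUP42 and NUP88 were called above the median mRNA, and NUP214 below.

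RANBP2, the giant filament protein that binds RAN and acts as a SUMO ligase (chromosome 2, 109335938 to 109402265, + strand), was the highest of them. It gave 89.2, 94.3, 90.8 and 95.8 RNA-seq TPM and only 52.2 and 49.4 PRO-seq TPM, with a log2 relative half-life of 1.50 ± 0.046 (adjusted p = 1.11e-23, edgeR). RANBP2 is the founder of a family of near-copies (RGPD genes), and 18.6% of the 75-base windows of its transcript and 26.3% of those of its trimmed TU occur elsewhere, so both of its levels are uncertain. Its first coding window of this kind lies at chr2:109347230-109347304 (GRCh37) and also within RGPD5, RGPD6 and RGPD8.
RANBP2 and its copies: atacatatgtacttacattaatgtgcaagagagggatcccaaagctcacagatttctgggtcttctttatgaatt

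NUP42, which supports mRNA export at the filaments (0.61 ± 0.07), and NUP88, the partner of NUP214 (0.31 ± 0.057), lay between on the log2 half-life scale. The transcript counted for NUP42 is annotated as a retained intron, and 28.2% of its exon bases and 40.4% of those of NUP88 lie opposite exons of another counted TU. Whether HTSeq used the strand is not stated in the methods or labels. If it did not, reads in these bases match both genes and may have been counted for neither.

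NUP214, the FG protein of the cytoplasmic face and a partner of leukemia fusions, was the most transcribed of all 44 members (chromosome 9, 134000973 to 134110050, + strand). PRO-seq gave 402 and 392 TPM, higher than 99.2% of mRNAs and 4.72-fold the median member. RNA-seq gave 88.6, 86.6, 88.0 and 86.7 TPM, which is an ordinary level for the group. Its log2 relative half-life was -1.54 ± 0.032 (adjusted p = 4.75e-28, edgeR), 2.92-fold below the median mRNA, and between -1.60 and -1.49 over the 8 pairings of libraries.

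The genes around NUP214 were not uniformly high. Of 17 other mRNA genes within 1 Mb, 3 exceeded 100 PRO-seq TPM, namely FAM78A (162 and 199.6 TPM, 23.4 kb beyond the end of NUP214), the kinase gene ABL1 (147 and 142 TPM, ending 238 kb before its start) and the exosome gene EXOSC2 (140.4 and 139 TPM). LAMC3 and AIF1L, which lie between ABL1 and NUP214, were at 0.522 and 1.72 TPM. K562 cells are known to carry extra copies of the BCR-ABL1 fusion segment and a fusion of NUP214 with XKR3 of chromosome 22. XKR3 gave 169 and 165 PRO-seq TPM but 18.8 RNA-seq TPM over the summed libraries, and BCR 136 and 143 PRO-seq TPM. Copy number and fusion reads are not in these counts, and their part in the level of NUP214 was not tested. Of the trimmed TU of NUP214, 34.2% also lies opposite other counted TUs.

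**Figure D3:**
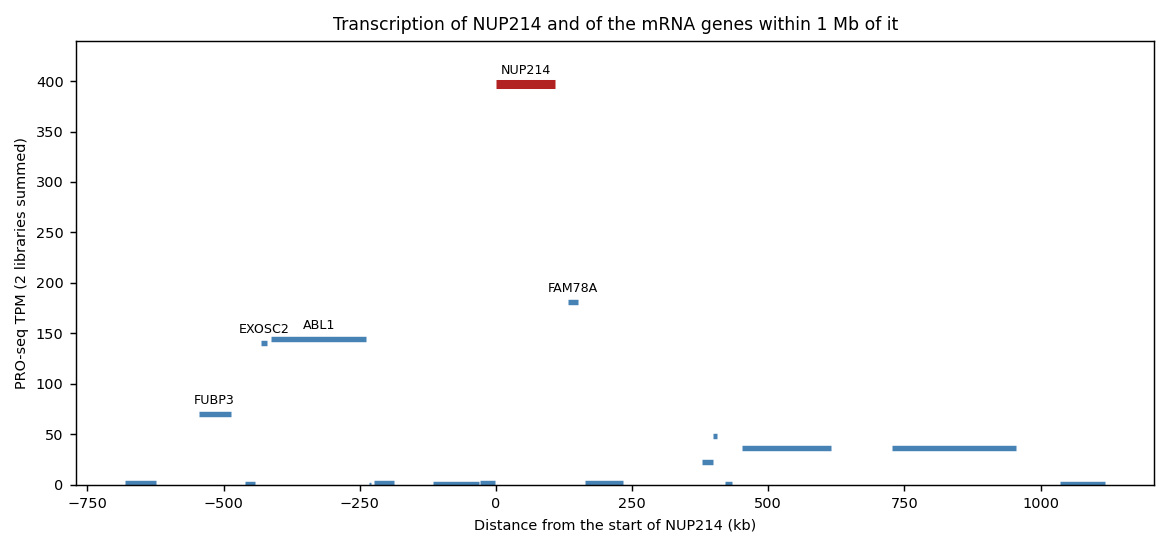
PRO-seq TPM (2 libraries summed) of NUP214 (red) and of the 17 other mRNA genes within 1 Mb (blue), each drawn as a bar over its span, with distance from the start of NUP214 in kb on the x axis. NUP214 stands at 397 TPM; ABL1, EXOSC2 and FAM78A lie between 140 and 181 TPM and the remaining neighbours at 69.9 TPM or less.

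The 250 bases before the annotated start of NUP214 that RefSeq places upstream (chr9:131125336-131125585, + strand, GRCh38.p14) are shown for the most transcribed member, with a CCAAT box, an ETS motif (CCGGAAG) and 2 overlapping copies of the CRE core (TGACGT) in capitals, the second on the opposite strand.
NUP214: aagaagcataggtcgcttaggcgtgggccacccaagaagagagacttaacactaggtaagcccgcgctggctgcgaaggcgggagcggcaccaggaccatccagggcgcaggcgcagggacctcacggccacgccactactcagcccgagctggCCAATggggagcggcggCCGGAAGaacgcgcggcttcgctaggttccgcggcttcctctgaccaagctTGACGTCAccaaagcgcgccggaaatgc

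In the nuclear basket, the filament structure on the inner side, the 3 members fell above, near and below the median mRNA. TPR, its main scaffold (chromosome 1, 186280784 to 186344385, - strand), gave 192, 210.2, 194 and 212 RNA-seq TPM, with replicates 1 and 3 below 2 and 4, and 122 and 125 PRO-seq TPM. The log2 relative half-life of TPR was 1.34 ± 0.041 (adjusted p = 1.04e-23, edgeR). NUP50, a mobile partner of importin alpha, had 0.16 ± 0.065 (adjusted p = 0.0208, edgeR), a call lost in 6 of the 16 alternatives, among them DESeq2. Of the 75-base windows of the NUP50 transcript, 18.0% occur elsewhere in the genome, against 3.71% of those of its trimmed TU. What this does to its value was not tested.

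NUP153, which tethers the basket (chromosome 6, 17615266 to 17707065, - strand), was called below the median mRNA. It gave 106, 101, 105 and 104 RNA-seq TPM, a level near the median of the nucleoporins, but 206 and 212 PRO-seq TPM, higher than 97.7% of mRNAs. Its ratio was -0.37 ± 0.036 on the log2 scale (adjusted p = 5.49e-11, edgeR), and it turned to 0.29 when every TU with at least 1 summed count entered.

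Among the importin alphas, the adaptors that read the classical nuclear localization signal, KPNA2 dominated. It made up 70.8% of the summed RNA-seq TPM of the 7 genes and 43.9% of their PRO-seq TPM. KPNA2 (chromosome 17, 66031851 to 66042970, + strand), an adaptor typical of dividing cells, gave 351, 336, 341 and 341 RNA-seq TPM and 210.2 and 212 PRO-seq TPM. At a log2 relative half-life of 1.33 ± 0.051 (adjusted p = 3.2e-21, edgeR), it was the only importin alpha of the 6 tested to be called above the median mRNA.

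KPNA1 was the lowest of the family (chromosome 3, 122140749 to 122233786, - strand). It gave 13.2, 14.3, 13.3 and 14.6 RNA-seq TPM against 54.1 and 55.9 PRO-seq TPM, and a log2 relative half-life of -1.35 ± 0.058 (adjusted p = 9.1e-20, edgeR). Of its trimmed TU, 22.0% lies opposite another counted TU, and PRO-seq reads there may have been counted for neither if the strand was not used. KPNA5, its close relative, was also called below, at -0.73 ± 0.087 (a call lost with every TU of at least 1 summed count, at -0.068), with 18.0% of the 75-base windows of its transcript found elsewhere in the genome against 5.25% of those of its TU. KPNA3 (-0.091, 95% interval -0.24 to 0.055), KPNA4 (-0.089, -0.18 to -0.00023) and KPNA6 (0.0097, -0.093 to 0.11) passed no test, and these 3 values did not differ from one another beyond their intervals. KPNA4 was called below in 4 of the 16 alternatives, such as with 500 bp removed (-0.13, adjusted p = 0.0065, edgeR), and above in 1, with every TU of at least 1 summed count (0.57).

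The importin beta family, the carriers proper, held both the highest relative half-life of all members and the second lowest. KPNB1, which carries importin alpha and its cargo (chromosome 17, 45727285 to 45762871, + strand), gave 374, 357, 371 and 365 RNA-seq TPM and 264 and 248 PRO-seq TPM. It was among the 3 highest members in both assays and made up 45.9% of the RNA-seq TPM of its family, at a log2 relative half-life of 1.15 ± 0.038 (adjusted p = 7.17e-23, edgeR).

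IPO5, a carrier of ribosomal proteins and histones (chromosome 13, 98605929 to 98676550, + strand), had a PRO-seq level under that of the median member (84.1 TPM) and an RNA-seq level above it (77.7 TPM). RNA-seq gave 139, 145, 153 and 148 TPM and PRO-seq only 37.8 and 34.5 TPM, so that its log2 relative half-life was 2.65 ± 0.052 (adjusted p = 8.8e-29, edgeR), 6.28-fold above the median mRNA. IPO9, another carrier of histones and ribosomal proteins (chromosome 1, 201798285 to 201853419, + strand), showed the reverse. RNA-seq gave 23.4, 23.6, 24.2 and 24.6 TPM and PRO-seq 132 and 130.3 TPM, with a log2 relative half-life of -1.82 ± 0.045 (adjusted p = 4.37e-26, edgeR), 3.52-fold below the median mRNA. The order of the pair was thus opposite in the assays, with IPO9 3.62-fold higher than IPO5 in summed PRO-seq TPM and IPO5 6.09-fold higher than IPO9 in summed RNA-seq TPM.

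IPO11, a carrier of ubiquitin-conjugating enzymes, had 2.36 ± 0.053 on the log2 half-life scale, but 58.2% of its trimmed TU is shared with other counted TUs on the same strand. With shared bases left out of all lengths, an alternative chosen after the data were seen, its value was 1.26 and still above the median mRNA (adjusted p = 6.1e-20, edgeR). IPO7, which brings in ribosomal proteins and transcription factors (0.93 ± 0.042), and its paralogue IPO8 (0.47 ± 0.068) were called above. IPO13, a carrier that works in both directions, passed no test (-0.20, 95% interval -0.42 to 0.017, adjusted p = 0.0765, edgeR), though it was called below in 3 of the 16 alternatives, such as without PRO-seq replicate 2 (-0.31, adjusted p = 0.038, edgeR), and above in 1, with every TU of at least 1 summed count (0.46).

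XPO1, the exportin of leucine-rich export signals, was the most abundant member in RNA (chromosome 2, 61704984 to 61765491, - strand). It gave 401, 405, 415 and 415 RNA-seq TPM, higher than 98.1% of mRNAs, and 262 and 265 PRO-seq TPM. It made up 72.0% of the RNA-seq TPM of the 4 exportins, and its log2 relative half-life was 1.27 ± 0.033 (adjusted p = 1.54e-25, edgeR). XPO7, a carrier of broad specificity (0.55 ± 0.05), was called above, and XPO6, the exporter of actin with profilin (0.094 ± 0.045, adjusted p = 0.0493, edgeR), narrowly so, with the call lost in 10 of the 16 alternatives.

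XPO4, which carries eIF5A out and other cargo in, was called below (chromosome 13, 21351468 to 21476885, - strand). RNA-seq gave 24.8, 28.6, 25.8 and 30.1 TPM, with replicates 1 and 3 below 2 and 4, and PRO-seq 59.8 and 61.2 TPM. Its log2 relative half-life was -0.51 ± 0.054 (adjusted p = 3.55e-10, edgeR), and it too turned with every TU of at least 1 summed count, to 0.15.

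**Figure D4:**
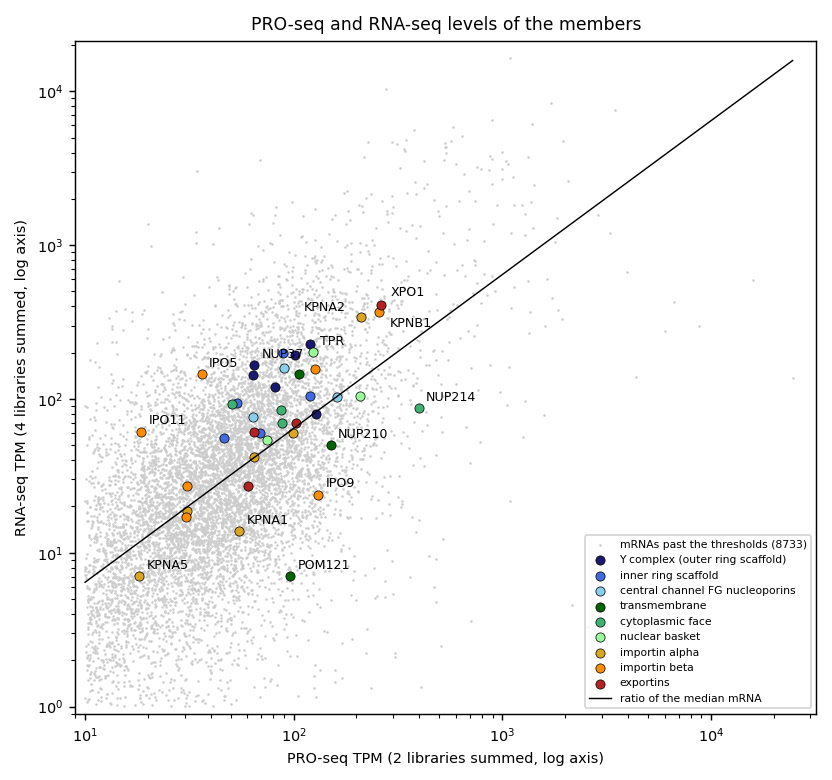
RNA-seq TPM against PRO-seq TPM (summed libraries, both axes log) for the 41 members past the thresholds, coloured by role, over the 8733 mRNAs past them (grey); the line marks the ratio of the median mRNA. XPO1, KPNB1 and KPNA2 lie high on both axes above the line, IPO5 and IPO11 far above it, and POM121, IPO9 and NUP214 far below it.

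The thresholds were missed by 3 members. NUP62, the central FG protein to which many carriers bind, gave 60.5, 59.4, 61.4 and 54.7 RNA-seq TPM but 0 PRO-seq counts in both libraries, where 3 counts over both would have been 0.262 TPM. Its whole trimmed TU (100%) is shared with other counted TUs on the same strand, IL4I1 among them, so the 0 does not show that the gene was not transcribed. IPO4, a carrier of histones, gave 1.77, 1.21, 1.37 and 1.47 RNA-seq TPM and 0.509 and 0.499 PRO-seq TPM, on a counted transcript annotated as a retained intron of which 91.6% of the exon bases lie within another counted TU. Both low levels therefore say little about these genes.

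KPNA7, an importin alpha of the oocyte and early embryo, was listed at 0 counts in all 4 RNA-seq libraries, where 3 counts over the 4 would have been 0.123 TPM. PRO-seq gave 10 and 21 counts, or 1.15 and 2.38 TPM. It was the only member of the 44 with no RNA-seq count, and these floors cover counting error only. Just inside the thresholds lay KPNA5, with 18.2 PRO-seq and 7.06 RNA-seq TPM over the summed libraries.

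Members with a low relative half-life had long transcripts. All 8 called below the median mRNA had at least 6030 exon bases, and of the 22 members with shorter transcripts 19 were called above and none below. Of the 19 members at or over that length, 8 were called above, 8 below and 3 neither. The boundary was read from these data as the shortest transcript called below, so the absence of such calls under it was fixed and the split is a description. The mRNAs were not split at this length. Over all 8733 of them, 45.4% were called above and 44.9% below. Across the 41 members, log2 relative half-life fell with exon length (Spearman's rho = -0.42, Pearson's r = -0.41), beside a rho of -0.33 over the 8733 mRNAs. Exon length enters the RNA-seq TPM itself, so this correlation across genes is not between independent measures. RANBP2 and TPR were exceptions, with 11708 and 9636 exon bases and both called above.

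By medians, the members called below also had longer 3′ untranslated regions. The median 3′ untranslated region was 4026 bases for the 8 members called below and 1758 for 26 of the 27 called above (the counted transcript of NUP42 has none annotated), and rho with log2 relative half-life was -0.29 over 40 members and -0.29 over mRNAs. That of NUP54, called above, takes 1582 of the 2002 exon bases of a transcript annotated as a target of nonsense-mediated decay. KPNA5 (9544 bases), IPO9 (8237) and XPO4 (6393) had long ones and were called below, whereas KPNA4 (7097) and KPNA6 (5669) lay at the median mRNA and NUP93 (5677) above it. NUP210 (1446), NUP214 (1176) and NUP153 (1062) were called below with ones shorter than the median of those called above. Introns per kb of exon went the other way, with a rho of 0.35 over the 41 members and 0.37 over mRNAs. PRO-seq TPM had a rho of only -0.14 with log2 relative half-life over the members, though both share the PRO-seq libraries, while RNA-seq and PRO-seq TPM had a rho of 0.51 with each other.

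**Figure D5:**
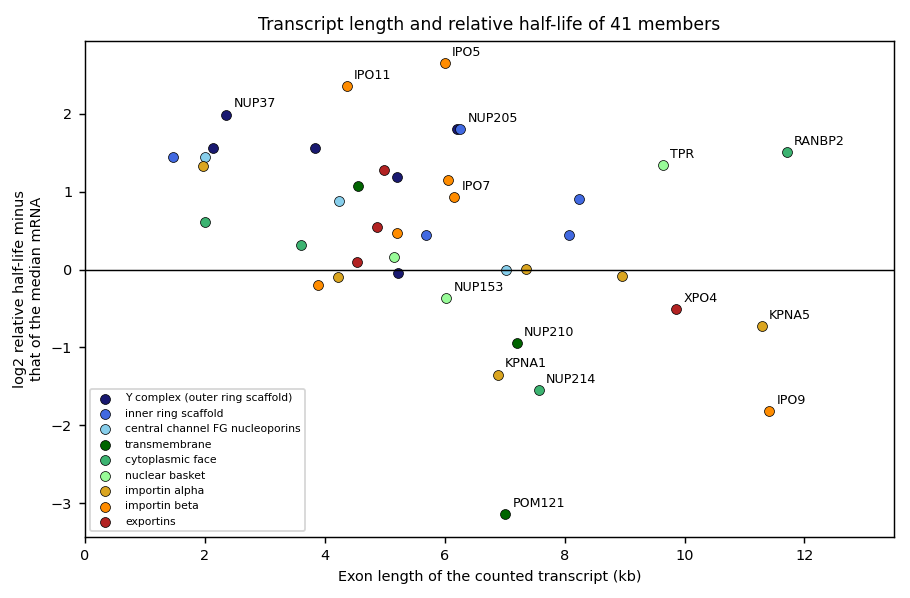
Log2 relative half-life, as the difference from the median mRNA, against exon length in kb of the counted transcript, for the 41 members past the thresholds, coloured by role. No member shorter than 6030 exon bases was called below 0; longer members lie on both sides of it, with POM121 at -3.14 and NUP205 at 1.80.

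Elements known to bind decay factors were found in members on both sides of the median mRNA. The AU-rich letters TATTTAT were found in the 3′ untranslated region of 18 of 42 members (42.9%) and of 30.3% of 17358 mRNAs, and the Pumilio letters TGTANATA in 13 of 42 (31.0%) and 24.5% of mRNAs, on the transcript strand. The 18 include NUP54, whose counted transcript is annotated as a target of nonsense-mediated decay. Per kb of 3′ untranslated region, the AU-rich letters occurred 0.344 times in members and 0.317 times in mRNAs, and the Pumilio letters 0.181 and 0.223 times. Of 18 tested members with the AU-rich letters, 10 were called above and 4 below, and of 22 without, 16 above and 4 below (median log2 relative half-life 0.44 and 1.12). Of 13 with the Pumilio letters, 9 were called above and 3 below, and of 27 without, 17 above and 5 below (medians 0.93 and 0.44). None of these differences was tested. The members with the AU-rich letters also had longer 3′ untranslated regions, at a median of 3140 against 1409.5 bases. KPNA5 held 8 copies and NUP107 held 6, and these genes lay on opposite sides of the median mRNA (-0.73 and 1.80 on the log2 scale). A copy of each is printed with 10 bases on both sides and the element in capitals, at chr6:117053982-117054008 (+ strand) for KPNA5 and chr12:69137500-69137526 (+ strand) for NUP107, both GRCh37.
KPNA5: aatgtgaaaaTATTTATtaccttaaat
NUP107: cttgaatatgTATTTATagatgccacc

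Promoters of the members held several motifs more often than coding promoters at large. RefSeq gave 48 promoters (GRCh38.p14) for 38 of the 44 members, and the 250 bases before each start were searched on both strands. Promoters of 1 gene can overlap and were counted separately. The ETS letters CCGGAAG were in 11 of the 48 (22.9%) and 10.9% of 20723 coding promoters, and the NRF1 letters GCGCATGCG in 4 (8.33%) and 2.07%. CCAAT boxes (CCAAT, 43.8% against 32.7%) and CRE cores (TGACGT, 14.6% against 8.10%) were also more frequent, GC boxes (GGGCGG, 47.9% against 54.8%) and TATAAA (8.33% against 8.51%) were not. These shares were not tested, and a match is no evidence of binding. The coding promoters were not matched to the members in transcription, so the shares may differ between transcribed and silent genes. NUP107 and NUP50 held both the ETS and the NRF1 letters within the 250 bases before their starts, which are printed with the motifs in capitals (chr12:68686728-68686977 and chr22:45163675-45163924, both + strand, GRCh38.p14). Their log2 relative half-lives were 1.80 and 0.16, and their summed PRO-seq TPM 63.5 and 74.7.
NUP107: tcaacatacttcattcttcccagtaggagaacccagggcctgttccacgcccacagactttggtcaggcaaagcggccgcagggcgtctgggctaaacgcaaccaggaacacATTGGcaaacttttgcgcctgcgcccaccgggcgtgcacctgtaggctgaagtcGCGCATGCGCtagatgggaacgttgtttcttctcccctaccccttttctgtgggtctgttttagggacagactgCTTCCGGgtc
NUP50: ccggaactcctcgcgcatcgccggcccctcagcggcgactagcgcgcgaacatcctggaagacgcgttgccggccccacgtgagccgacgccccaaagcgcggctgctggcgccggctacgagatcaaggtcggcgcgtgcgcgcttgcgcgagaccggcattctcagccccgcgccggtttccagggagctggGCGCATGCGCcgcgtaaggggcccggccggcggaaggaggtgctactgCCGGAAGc

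The other genes of nuclear transport, a list of 33 that the symbol rule did not reach, also lay mostly above the median mRNA. Of 28 tested, 20 were called above the median mRNA and 8 below, with a median log2 relative half-life of 1.20, beside 27 and 8 of 41 and a median of 0.55 for the members. Among all 8733 mRNAs tested, 45.4% were called above and 44.9% below. The highest were RANBP1, a cofactor of RAN (3.15), ALYREF, an mRNA export adaptor (2.44), and RAN, the GTPase that drives the cycle (2.17). POM121C (-4.50), the importin TNPO2 (-1.75) and the mRNA export receptor NXF1 (-1.50) were the lowest. RAN stood at 1111 and RANBP1 at 2493 RNA-seq TPM, more than the 408 TPM of XPO1, the highest member.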

How the data were processed

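Total RNA-seq (4 libraries, single-end reads of 75 bases) and PRO-seq (2 libraries) of K562 cells were analysed. The authors deposited raw read counts per transcript, with no normalization, for each library. By the study's methods and the submitters' processing notes, cutadapt trimmed the reads, HISAT2 aligned them to GRCh38 and HTSeq counted them over GENCODE transcripts. For PRO-seq the methods exclude 500 bp from both ends of each TU, while the deposited tables are marked only as leaving out 500 bp. The former was taken here and sets each PRO-seq TPM, and the latter was an alternative. Neither tool versions nor whether the strand was used is given in the sources used here. Records that name no TU (66.5% to 88.6% of a library, among them those aligned to several places) stayed out of library sizes and tests.

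Transcripts were joined by identifier to GENCODE annotation lifted to GRCh37, which gave all lengths and coordinates, and 37339 of 42371 were found. Counts were summed over the libraries of an assay before TPM was computed, and half-life estimates took TUs with a PRO-seq TPM over 10 and an RNA-seq TPM over 1. edgeR (version 4.0.16, R 4.3.3) fitted assay with TMM normalization and offsets for TU length, and its quasi-likelihood test was shifted so that the median mRNA was at 0, with Benjamini-Hochberg adjustment over 9927 TUs. DESeq2 (1.42.0) was an alternative. Other steps used Python 3.11.15. In a simulation of the RNA-seq against PRO-seq comparison over 9927 TUs, 200 TUs were given a log2 change of 1, of which 95.5% were recovered beside 10 false calls. All other simulated TUs had the same ratio and a fixed dispersion, whereas most measured TUs were called above or below the median mRNA. The simulation therefore checks the fit and does not give the error rate of the calls made here.

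The members, role lists and tests were chosen with earlier results of these data known. Values per library are given for the highest and lowest relative half-life in each role list, the 3 highest members in each assay and the members that missed the thresholds. Of other transport genes the 3 highest and 3 lowest are named. POM121C is also named beside POM121, and the genes around NUP214, XKR3, BCR and the RGPD genes were chosen after values were seen. Windows of 75 bases were looked up on both strands of GRCh37. They have the length of the RNA-seq reads and not of the PRO-seq reads, which were sequenced longer. Promoters are RefSeq's (GRCh38.p14). The alternatives were other thresholds and lengths, DESeq2, library totals, a replicate block, a 2-fold test and the removal of each library. The fit with the replicate block used only the RNA-seq libraries whose number a PRO-seq library shares. Leaving bases shared with another counted TU on the same strand out of the lengths (TUs with under 200 bp left were dropped) was added after the data were seen. The 4 RNA-seq and 2 PRO-seq libraries share only replicate numbers, and the main fit did not pair them. Intervals and floors cover counting error and the spread between libraries of 1 flask only.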

Additional observations from a re-analysis of the deposited data

How the results depend on the processing

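Of the 41 members tested, 20 kept their direction and side of the threshold under every alternative they were tested in (16, but 15 for IPO11 and KPNA5, which lie under 20 PRO-seq TPM), and 33 did so when the 2-fold test and the entry of every TU with 1 summed count are set aside. With the 2-fold test, calls fell to 16 above and 4 below for members, to 2138 above and 2897 below for all TUs, and to 5 below for other transport genes. Entry of every TU with at least 1 summed count lowered the median mRNA in these data. In that setting 5 members were called below, and all TUs gave 6634 above and 7595 below of 20631. IPO13 (0.46), KPNA3 (0.57), KPNA4 (0.57), NUP160 (0.61), NUP153 (0.29) and XPO4 (0.15) reversed there. The median member relative to the median mRNA (0.55 for half-life, 0.89 for PRO-seq TPM and 1.45 for RNA-seq TPM, log2) then moved to 1.21, 2.08 and 3.20. At 10 summed counts it moved to 0.66, 1.28 and 2.06, and KPNA3 (0.029), KPNA4 (0.030) and NUP160 (0.072) reversed. With thresholds of 20 and 2 TPM, the PRO-seq and RNA-seq medians moved to 0.67 and 1.19, and KPNA6 (-0.028) and NUP98 (-0.038) reversed. With 500 bp removed, KPNA6 (-0.030) and NUP98 (-0.044) reversed and the median replicate SD rose to 0.0815. NUP98 also reversed with DESeq2 (-0.00045) and with the RNA-seq pairs summed (-0.00013). Members without a call gained one without reversing in some settings, namely KPNA4 below the median mRNA (500 bp removed, 20 and 2 TPM, and without RNA-seq replicate 4 or PRO-seq replicate 2), IPO13 below it (20 and 2 TPM, and without RNA-seq replicate 1 or PRO-seq replicate 2), and KPNA6 and NUP98 above it (at least 1 and at least 10 summed counts). IPO13, KPNA3, KPNA4 and NUP160, which reversed with every TU of at least 1 summed count, were called above the median mRNA in that setting. The cause was not tested where none is named.

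Leaving out each library in turn gave 25 to 27 members above and 8 to 10 below, 3872 to 4005 and 4785 to 4945 of all TUs, and medians of 0.52 to 0.57 (half-life), 0.83 to 0.90 (PRO-seq TPM) and 1.41 to 1.48 (RNA-seq TPM). Over these fits KPNA6 (-0.045 to 0.063), NUP160 (-0.099 to 0.0022) and NUP98 (-0.015 to 0.019) reversed, KPNA6 without PRO-seq replicate 2, NUP160 without PRO-seq replicate 1 and NUP98 without RNA-seq replicate 1 or 3 or PRO-seq replicate 1. XPO6 lost its call in 5 of these 6 fits and NUP50 in 2. A lone PRO-seq library was taken to vary as RNA-seq does.

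The difference between replicates 1 and 2 in RNA-seq did not go with that in PRO-seq (r = -0.0175 over 9839 TUs). Noise of separate preparations need not be shared, so this cannot show whether the numbers pair libraries. With the replicate block, 26 members were called above and 8 below (3919 and 4854 of all TUs), NUP50 lost its call and KPNA6 reversed (-0.0078). This fit left out the RNA-seq libraries without a PRO-seq library of the same number. Effects of the block and of that removal cannot be told apart. Summing the RNA-seq pairs gave 26 and 8, DESeq2 25 and 8, library totals 27 and 8, and leaving shared bases out of the lengths 27 and 8. KPNA7, at 10 and 21 PRO-seq counts and no RNA-seq count, is limited by depth.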

Other observations

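Summed over a family, RNA was carried by few genes. KPNA2 with KPNA4 and KPNA6 made up nearly all of the importin alpha RNA-seq TPM (70.8%, 12.4% and 8.61%), and IPO7 and IPO5 followed KPNB1 among the importin betas (19.5% and 18.2% of RNA-seq TPM). The PRO-seq shares differed for some, with IPO9 at 20.8% of the family's PRO-seq TPM and 2.99% of its RNA-seq TPM, and KPNA1 at 11.4% and 2.87%. These shares describe the summed libraries and were not tested.

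For 33 of the 44 members under 2% of the 75-base windows of the transcript occur elsewhere in the genome, and for 7 over 5%. These 7 were POM121, RANBP2, NUP50, KPNA5, KPNA2 (9.51%), IPO7 (6.78%) and KPNA3 (5.88%). BCR, the fusion partner of ABL1, had 49.8 RNA-seq TPM and a log2 relative half-life of -0.85, and XKR3 one of -2.51 (adjusted p = 1.85e-24, edgeR).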
